A study of Mus musculus with 6 samples.

Results

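Islet stroma was followed on 6 arrays through 10 genes that do not encode collagens: Dcn, Lum, Bgn, Sparc, Fn1, Postn, Acta2, Pdgfra, Pdgfrb and Thy1. They were taken by symbol from the array's annotation, and all 10 of the 10 were among the 18193 genes measured. The list was chosen by symbol with earlier results of these data known, among them the lower reading of Dcn with CMPF, so every difference between CMPF and vehicle below is a description and carries no test of its own. The 3 CMPF arrays held RNA of isolated islets exposed for 24 hours to 200 uM CMPF, a circulating metabolite of furan fatty acids whose letters stand for a substituted furanpropanoic acid. The 3 vehicle arrays held RNA of islets given 0.1% ethanol for the same time. Islets of both groups came from male CD1 mice of 8 weeks and had rested overnight in RPMI medium. Whether the CMPF medium also held ethanol, whether animals were pooled and whether the numbered samples were separate preparations is not given in the labels. The spread between arrays may therefore be partly technical.

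Stellate cells and fibroblasts are the main matrix-producing cells of the pancreas. A quiescent stellate cell stores vitamin A, and an activated one takes on a contractile form with smooth muscle actin and secretes matrix. Pericytes and smooth muscle cells of the vessels share many of the same genes, so the list marks a family of mesenchymal cells and not a single type. An isolated islet carries some of this tissue along, with more or less of it from 1 isolation to the next.

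Values are log2 signals normalized by the authors with RMA, so 1 unit is a doubling. The array reads a gene through 1 or more probe sets, and the brightest of them over the 6 arrays stands for the gene here. Arrays of the same replicate number are called a pair, since their deviations from the group mean went together over all genes. Probe sets differ in how brightly they read, so the signals of different genes are not compared as amounts of RNA, and "brightest" below refers to the signal alone. Of the 10 genes, 7 read above the median gene level of 6.42 and 3 below it (Lum just below, Pdgfra and Thy1). All 11 measured beta cell markers also read above that level.

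Of the 10 genes 9 shared a single pattern, in which CMPF read lower than vehicle in pairs 1 and 2 and higher in pair 3. Over all genes 16.1% had that pattern. The exception was Thy1. The median difference of the 10 genes was -0.33 in pair 1, -0.50 in pair 2 and 0.30 in pair 3, and -0.17 over the 3 pairs, against 0.0018 for all genes. No gene of the 10 was lower, or higher, with CMPF in all 3 pairs, where 11.1% and 11.8% of all genes were. The groups overlapped for each of the 10 genes, while 2.11% of all genes were lower and 2.41% higher with CMPF without overlap. With limma and Benjamini-Hochberg adjustment at 0.05, 0 of the 10 genes and 0 of 18193 genes (0%) were called. Without adjustment, limma gave p under 0.05 for 0 of the 10 and for 205 of all genes. In such bulk samples, fewer cells of a type and less RNA per cell cannot be told apart.

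**Figure D1:**
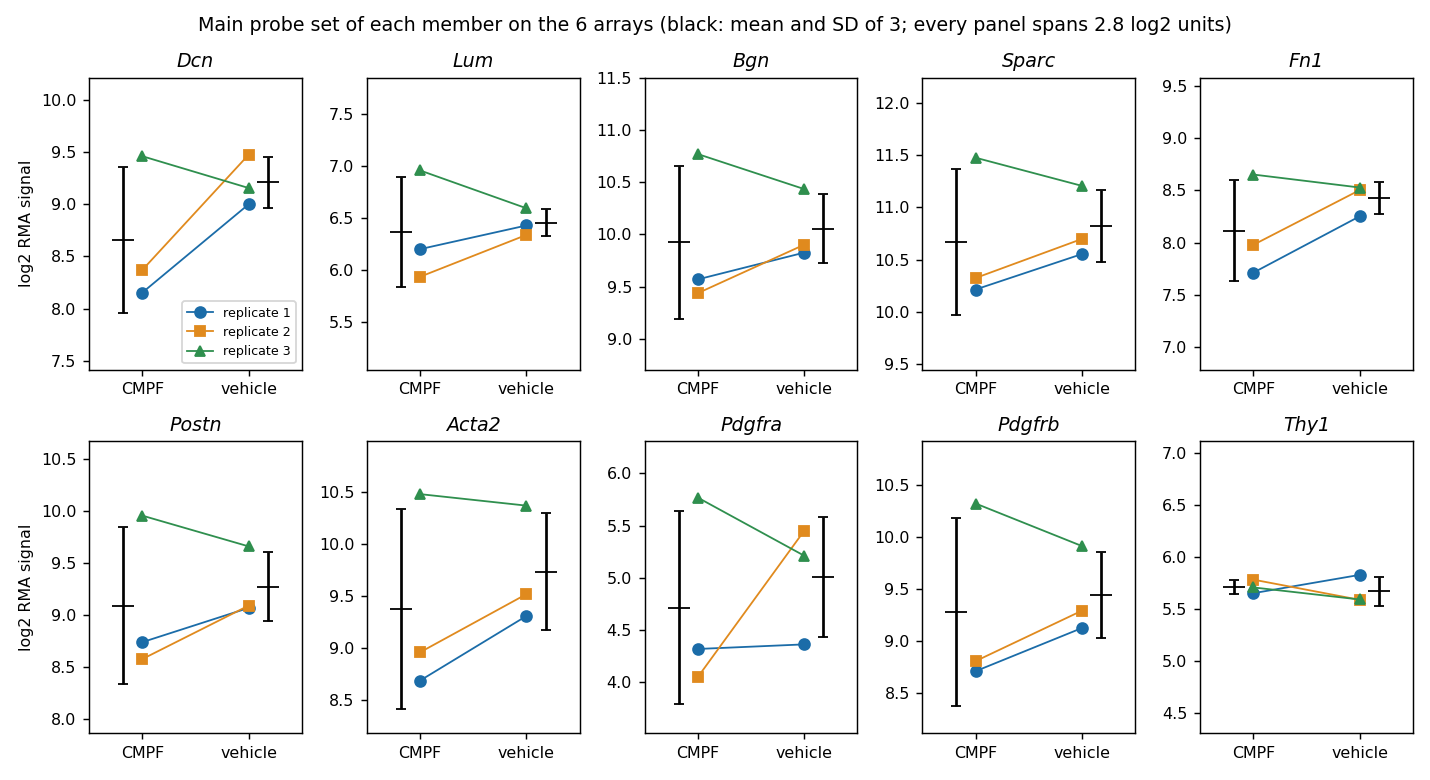
Log2 RMA signal of the main probe set of each gene on the CMPF arrays (left) and the vehicle arrays (right), with a line joining arrays of the same replicate number and the mean and SD of 3 arrays in black. CMPF 3 is the highest array for 8 of the 10 genes, while Thy1 spans 0.24 log2 units over all 6 arrays.

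Dcn, Lum and Bgn encode decorin, lumican and biglycan, small leucine-rich proteoglycans that bind collagen fibrils and set their spacing. Decorin and biglycan also bind TGF-beta. Dcn and Lum lie next to each other on mouse chromosome 10.

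Dcn read 8.15, 8.37 and 9.46 on CMPF arrays 1 to 3, against 9.00, 9.48 and 9.16 on vehicle arrays 1 to 3. CMPF 1 and 2 lay below every vehicle array, and CMPF 3 lay inside the vehicle range. The mean was 8.66 ± 0.70 with CMPF and 9.21 ± 0.24 with vehicle (SD, n = 3 each). The difference of -0.55 (SE 0.326) is a CMPF signal 0.68 times that of vehicle, and it was the most negative mean of the 10 genes. Its pair values were -0.85, -1.11 and 0.31. Without CMPF 3 the difference was -0.95, it was -0.30 without CMPF 1, and it was negative without any 1 of the 6 arrays. The other Dcn probe set was dim, at 3.80 ± 0.24 with CMPF and 3.74 ± 0.06 with vehicle, below the lower quartile of gene levels (4.53), and the mean of both sets differed by -0.24.

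Lum read 6.20, 5.94 and 6.96 with CMPF, against 6.43, 6.34 and 6.59 with vehicle. Its CMPF arrays reached both further down and further up than its vehicle arrays. The mean was 6.37 ± 0.53 with CMPF and 6.45 ± 0.13 with vehicle, a difference of -0.09 (SE 0.245), which became 0.13 without CMPF 2.

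Bgn read 9.57, 9.44 and 10.77 with CMPF, against 9.83, 9.90 and 10.44 with vehicle. Replicate 3 was the highest array in both groups. The difference was -0.13 (SE 0.353), with pair values of -0.26, -0.46 and 0.34. Its other 2 probe sets followed the same signs in each pair, although their means gave differences of -0.08 and 0.05. So the 3 probe sets of Bgn put the same arrays high and low and disagreed on the sign of the mean difference.

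Dcn differed from Lum and Bgn in how far the first pairs were apart. The pair difference of Dcn less that of Bgn was -0.59, -0.64 and -0.03, and Dcn less Lum gave -0.62, -0.70 and -0.06. Both were negative in all 3 pairs and near 0 in pair 3. Fmod, the brightest of the other small leucine-rich proteoglycans listed below, had pair values of -0.21, -1.09 and 0.14. Its pair 2 value was thus close to that of Dcn. Since Dcn was the gene that prompted the list, its gap to Lum and Bgn is a description only.

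**Figure D2:**
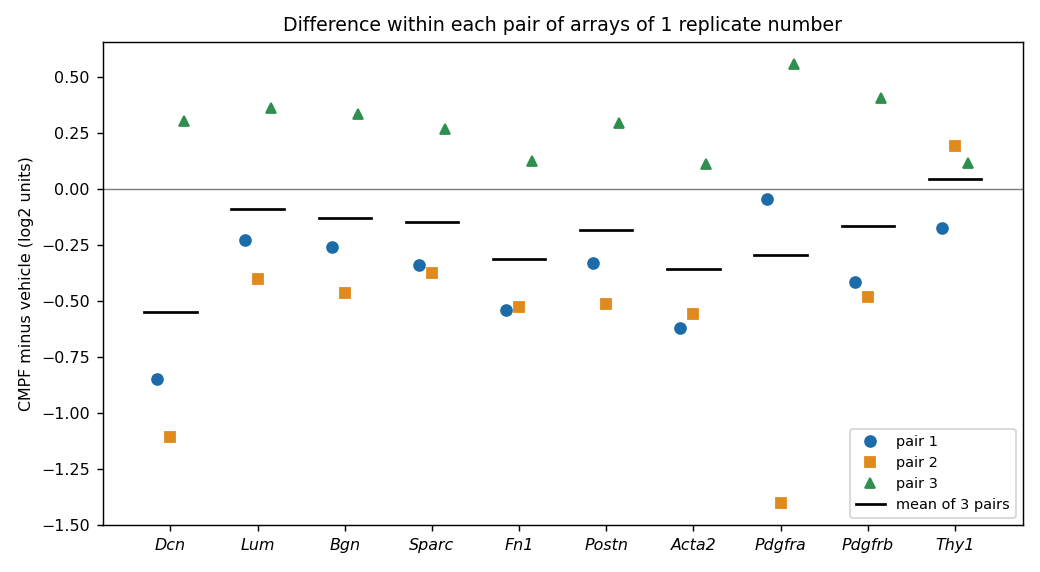
CMPF minus vehicle in log2 units for each gene within pairs 1, 2 and 3, with the mean of the pairs as a black bar. Pairs 1 and 2 lie below 0 and pair 3 above 0 for every gene but Thy1, and Dcn and Pdgfra have the lowest single values, in pair 2.

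The next group holds secreted glycoproteins through which cells attach to and reshape matrix. Sparc encodes osteonectin, a collagen-binding protein made where matrix is remodelled. It read 10.21, 10.32 and 11.48 with CMPF, against 10.55, 10.70 and 11.21 with vehicle. As for Bgn, replicate 3 was highest in both groups and CMPF 1 and 2 were the lowest of all arrays. The difference was -0.15 (SE 0.342), and the second probe set gave -0.19 (SE 0.32). Its remaining set, at 5.51 on average, had the opposite sign in each pair.

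Fn1 encodes fibronectin, an adhesive glycoprotein bound by integrins. It read 7.71, 7.98 and 8.65 with CMPF, against 8.25, 8.50 and 8.53 with vehicle. CMPF 1 and 2 lay below all vehicle arrays, as for Dcn. The difference was -0.31 (SE 0.230), and it stayed between -0.58 and -0.11 whichever array was left out. Postn encodes periostin, a matrix protein induced by TGF-beta. It read 8.74, 8.58 and 9.95 with CMPF, against 9.07, 9.09 and 9.66 with vehicle, a difference of -0.18 (SE 0.360). Here too CMPF 1 and 2 lay below and CMPF 3 above every vehicle array.

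Acta2 encodes smooth muscle alpha-actin, the marker of activated stellate cells and of vascular smooth muscle. It read 8.69, 8.96 and 10.48 with CMPF, against 9.31, 9.52 and 10.36 with vehicle. It had the widest range over the 6 arrays of the 10 genes, 1.79 log2 units. The mean was 9.37 ± 0.96 with CMPF and 9.73 ± 0.56 with vehicle, a difference of -0.36 (SE 0.483). That difference was -0.91 without CMPF 3, -0.0123 without CMPF 1 and -0.04 without vehicle 3. Its standard error was 0.152 with the replicate number as a block. That block also lowered the SE of each of the other genes, for example to 0.155 for Bgn, 0.258 for Dcn and 0.098 for Thy1. Limma with the block still gave an unadjusted p under 0.05 for 0 of the 10 genes. The suffix of the main Acta2 probe set (1416454_s_at) is one the array's maker uses for sets whose probes may match several transcripts. Other actins may therefore add to the reading. The other 2 Acta2 sets were dim, at 3.33 and 3.06.

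Pdgfra and Pdgfrb encode the receptors for platelet-derived growth factors, which drive the growth and migration of mesenchymal cells. Pdgfra marks fibroblasts and Pdgfrb marks pericytes and stellate cells. Pdgfrb read 8.71, 8.81 and 10.32 with CMPF, against 9.13, 9.29 and 9.91 with vehicle, a difference of -0.16 (SE 0.431). Its CMPF arrays lay on both sides of the vehicle range. The second Pdgfrb set, which reads 6.66 on average, gave pair values of -0.22, -0.19 and 0.02, the same signs at less amplitude.

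Pdgfra read 4.32, 4.05 and 5.77 with CMPF, against 4.36, 5.45 and 5.21 with vehicle. Its difference of -0.30 (SE 0.472) rested on pair 2, with pair values of -0.04, -1.40 and 0.56, and it was 0.26 without that pair. Its other probe sets averaged 4.21 and 3.93, below the lower quartile of gene levels, and did not repeat the pattern. A signal this dim cannot be told from an undetected one here, since the values carry no detection call.

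Thy1 encodes a surface glycoprotein of fibroblasts that mouse T cells and neurons also carry. It read 5.65, 5.78 and 5.71 with CMPF, against 5.83, 5.59 and 5.59 with vehicle. The arrays that were high for the other 9 genes were not high for Thy1. The mean was 5.71 ± 0.07 with CMPF and 5.67 ± 0.14 with vehicle, and limma's 95% interval for the difference spanned -0.19 to 0.28. None of the 12 measured lymphocyte markers read above the median gene level, nor did Thy1, while 6 of 14 Schwann and neuronal markers did. Which cells gave the Thy1 signal was not tested.

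The 10 genes have 21 probe sets, and 3 of them (Lum, Postn and Thy1) have a single one. Among the 11 that are not a gene's main set, 6 read below the lower quartile of gene levels. Of the 5 brighter ones, 4 were lower with CMPF in pairs 1 and 2 and higher in pair 3, and the dimmest Sparc set was the exception. The shared pattern was thus seen in each repeat reading of Bgn and Pdgfrb, and in 1 of 2 for Sparc. None of the 6 dim sets, which belong to Dcn, Fn1, Acta2 and Pdgfra, had it. In all, 7 of the 11 sets lacked the pattern.

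Apart from Thy1, these genes also had a wide spread within a group, though not they alone. The pooled within-group SD ranked between the 94.1st and the 99.2nd percentile of all genes for the other 9 and at the 29.4th for Thy1. Its median was 0.56 over the 10 genes, 0.79 over the acinar markers, 0.39 over the remodelling genes and 0.14 over all genes. Replicate 3 was the highest array of both groups for 7 of the 10 genes, against 13.8% of all genes. The same held for 15 of 24 matrix remodelling genes, 11 of 18 endothelial markers and 10 of 17 macrophage markers. It held for 0 of 20 acinar and 0 of 11 beta cell markers. The mean deviation of the 10 genes from their group mean was -0.40, -0.37 and 0.76 on CMPF 1 to 3, against -0.23, -0.02 and 0.26 on vehicle 1 to 3. CMPF 3 therefore stood further from its group than any vehicle array. CMPF 3 was also the highest of the 6 arrays for 8 of the 10 genes, where 14% of all genes peaked.

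Within this common movement the genes fell at different distances from each other. The distance used is the root mean square difference between the deviations of a pair of genes from their group means, over the 6 arrays. Bgn and Postn differed by 0.02 log2 units, the smallest value among the 10 genes, and Bgn and Sparc by 0.075. Pdgfrb lay within 0.13 of Bgn, Sparc and Postn and 0.10 from Acta2. Dcn lay closest to Fn1 (0.17) and further from Bgn (0.27), Postn (0.28) and Acta2 (0.39). On the vehicle arrays the genes differed by degrees. On vehicle 3 Bgn exceeded the mean of vehicle 1 and 2 by 0.57, Pdgfrb by 0.70 and Acta2 by 0.95, while Dcn was 0.08 below that mean (difference -0.08). Fn1 (0.15), Lum (0.21) and Pdgfra (0.31) lay in between. On CMPF 3 the same excess was 1.27 for Bgn, 1.56 for Pdgfrb, 1.65 for Acta2 and 1.20 for Dcn. Thy1 was at least 0.32 from every one of the others. Genes share arrays and depth of signal here, so these distances describe 6 arrays and carry no test.

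**Figure D3:**
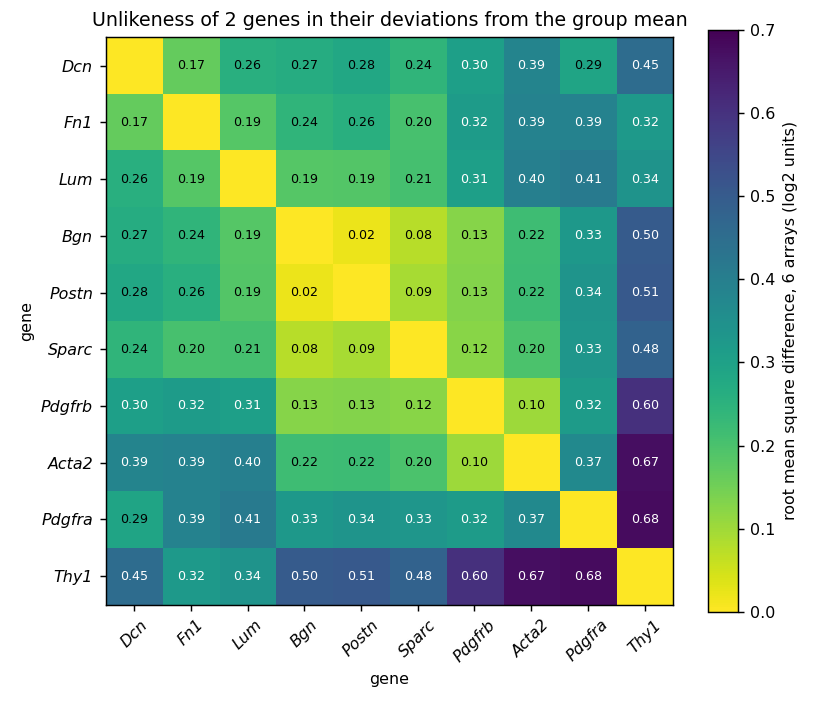
Root mean square difference in log2 units between the deviations of each pair of genes from their group means, over 6 arrays, with light squares for genes that moved alike. Bgn, Postn, Sparc and Pdgfrb form the most alike block (0.02 to 0.13), Acta2 adjoins it through Pdgfrb, and Thy1 is far from all.

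By the same distance, 5 other genes above the median level lay nearest to Dcn. They were S100a6 (0.12), a calcium-binding protein, Fbln2 (0.13), the matrix protein fibulin 2, Vasn (0.13), which encodes vasorin, Rarres2 (0.14), which encodes chemerin, and Fst (0.15), which encodes follistatin. The median distance from Dcn was 0.45 over all 18192 other genes. Fn1 ranked 29th among them, Sparc 222nd and Bgn 354th, while Acta2 ranked 3108th and Thy1 9336th. Fbln2 had pair values of -0.96, -1.21 and 0.57, close to those of Dcn. The choice by distance on the same arrays largely fixed this likeness in shape. The difference was -0.53 (SE 0.353) for Fbln2 and -0.27 (SE 0.322) for S100a6. For Vasn, Rarres2 and Fst it was -0.18, -0.06 and -0.11.

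RefSeq promoter windows (GRCm38.p6) were at hand for 5 of the 10 genes, 6 windows in all, and 4 are printed, for Bgn, Postn, Sparc and Acta2, which varied together over the arrays. Each runs over the 250 bases before an annotated start, 5′ to 3′ on the gene's strand, and capitals mark any of the 5 motifs that were searched on both strands and are spelled out below them.
Bgn, chrX:73483351-73483600, plus strand: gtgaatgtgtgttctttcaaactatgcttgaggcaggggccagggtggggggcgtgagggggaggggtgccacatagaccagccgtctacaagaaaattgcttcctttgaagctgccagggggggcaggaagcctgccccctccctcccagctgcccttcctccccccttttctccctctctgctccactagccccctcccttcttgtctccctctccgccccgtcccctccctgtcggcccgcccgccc
Postn, chr3:54360857-54361106, plus strand: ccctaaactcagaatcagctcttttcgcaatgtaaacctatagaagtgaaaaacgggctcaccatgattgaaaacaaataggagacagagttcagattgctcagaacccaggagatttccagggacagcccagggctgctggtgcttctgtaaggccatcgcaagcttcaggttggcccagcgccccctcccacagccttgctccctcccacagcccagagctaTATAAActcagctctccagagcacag
Sparc, chr11:55420081-55420330, minus strand: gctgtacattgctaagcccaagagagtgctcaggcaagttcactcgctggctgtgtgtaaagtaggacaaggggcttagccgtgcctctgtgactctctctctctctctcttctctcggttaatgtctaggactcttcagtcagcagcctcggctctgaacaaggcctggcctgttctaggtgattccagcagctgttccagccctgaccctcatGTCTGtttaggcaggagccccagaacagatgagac
Acta2, chr19:34255374-34255623, minus strand: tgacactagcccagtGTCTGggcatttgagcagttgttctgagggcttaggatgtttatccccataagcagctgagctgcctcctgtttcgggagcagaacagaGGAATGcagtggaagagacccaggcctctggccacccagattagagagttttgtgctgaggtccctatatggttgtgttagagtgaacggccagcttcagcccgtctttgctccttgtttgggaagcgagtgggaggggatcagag
TATAAA, the core of the TATA box, was in the printed Postn window, as in 12.4% of 32851 mouse windows of this length. GGAATG, the core bound by TEAD factors, was in the Acta2 window, as in 12.6%. CAGAC, a SMAD half-site that turns up often by its length, was on the opposite strand in the Sparc and Acta2 windows, as in 42.2%. It was also in the Pdgfra window and in the other Postn window, which are not printed. TGANTCA, bound by AP-1 (6.75% of windows), and the strict CArG box of serum response factor (1.47%) had no match in any of the 6 windows. Looser forms of the CArG box were not searched, and the printed Acta2 window holds stretches that miss the strict form by a single base. None of the motifs searched overlapped another in these windows. The Bgn window held none of the 5.

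Lists of other stromal genes, chosen with earlier results of these data known, were set beside the 10 genes. None of their genes was called by limma. Among 24 matrix remodelling enzymes and inhibitors, 15 had the shared pattern (62.5%), with 1 lower and 2 higher with CMPF in all 3 pairs. Their 2 brightest were Timp1, an inhibitor of matrix proteases, and P4ha1, a collagen prolyl hydroxylase. Timp1 read 9.59, 10.15 and 11.16 with CMPF, against 9.83, 10.64 and 10.72 with vehicle, a difference of -0.10 (SE 0.408). P4ha1 gave -0.16 (SE 0.340).

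Of 23 matrix glycoproteins and elastic fibre genes, 10 had the pattern (43.5%). Tnc, which encodes tenascin C, read 8.03, 8.31 and 9.91 with CMPF, against 8.62, 8.82 and 9.49 with vehicle. It thus ordered the arrays as Acta2 did. Emilin1, of elastic fibres, averaged 9.85 ± 0.17 with CMPF and 9.86 ± 0.24 with vehicle, and replicate 2 was its lowest array in both groups. Among 12 other small leucine-rich proteoglycans 1 had the pattern (8.33%), but 8 of the 12 read below the lower quartile of gene levels. The 1 was Fmod, fibromodulin, which read 6.58, 6.05 and 8.60 with CMPF, against 6.78, 7.14 and 8.45 with vehicle. Podn, which encodes podocan, differed by 0.04 (SE 0.137).

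Contractile genes had the pattern in 7 of 14 cases, among them the brightest, Cald1 (caldesmon, -0.14, SE 0.234) and Tpm1 (a tropomyosin, -0.05, SE 0.190). Pericyte and mural genes had it in 5 of 12, among them Rgs5, a pericyte marker, at 7.67, 8.39 and 9.08 with CMPF against 7.86, 8.46 and 8.94 with vehicle, and Ednrb, an endothelin receptor, at 0.0050 (SE 0.338). Rgs5 was also highest on replicate 3 in both groups, but its pair differences were small (-0.19, -0.07 and 0.13). The list of quiescent stellate and other fibroblast genes had it in 5 of 18. Its median difference was -0.0085, and 1 gene was lower and 1 higher with CMPF in all 3 pairs. The 2 brightest genes of the list, Vim and Gsn, were more negative than that median. Vim, vimentin, had pair values of -0.70, -0.66 and 0.37 and a difference of -0.33 (SE 0.422), and Gsn, gelsolin, one of -0.12 (SE 0.159).

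On the signalling side, 10 of 18 PDGF ligand and TGF-beta pathway genes had the pattern (55.6%), with list medians of -0.17, -0.09 and 0.09 in the 3 pairs. Their brightest members differed by -0.05 (Smad4, the common SMAD, SE 0.086) and -0.03 (Skil, a SMAD co-repressor, SE 0.085). Chosen after their values were seen, Pdgfc, a PDGF ligand, had pair values of -0.60, -0.67 and 0.30, and the ligand gene Tgfb3 had -0.67, -0.17 and 0.24. In the same list 1 gene was lower with CMPF in all 3 pairs and 1 higher, Smad3 (difference 0.24, SE 0.352). Of 20 matrix receptors 6 had the pattern (30%). Ddr1, a collagen receptor, differed by -0.15 (SE 0.099) and was lower with CMPF in all 3 pairs, and Itgav, the integrin alpha V chain, by -0.09 (SE 0.083). Itgav read 10.94, 11.03 and 11.06 with CMPF, against 11.08, 11.15 and 11.07 with vehicle, without overlap between the groups. Both differences were near 0 with the mean of a gene's probe sets (-0.0047 for Ddr1 and 0.011 for Itgav).

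**Figure D4:**
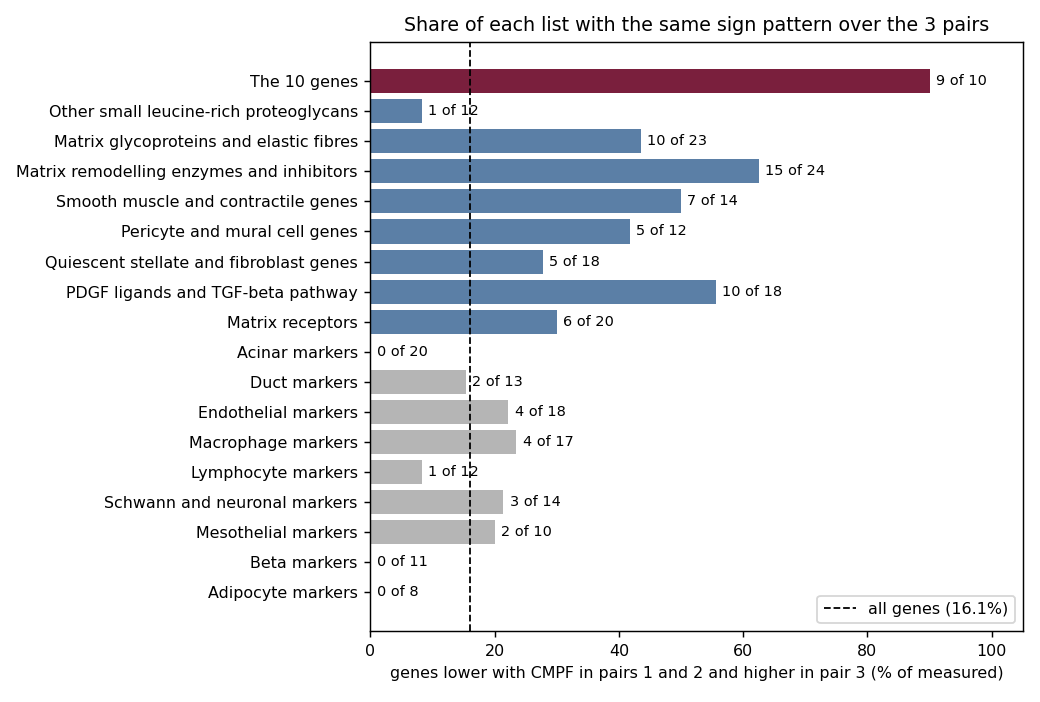
Share of the measured genes of each list that were lower with CMPF in pairs 1 and 2 and higher in pair 3, with counts beside the bars and the share of all genes (16.1%) as a dashed line. The 10 genes (9 of 10) and the remodelling list (15 of 24) lie furthest to the right, and no acinar, beta cell or adipocyte marker has the pattern.

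Acinar markers, from the enzyme-secreting tissue, were lowest within each group on the array where the 10 genes averaged highest. The mean level of 20 acinar markers was 11.46, 12.16 and 11.15 on CMPF 1 to 3, against 11.20, 12.11 and 10.30 on vehicle 1 to 3. Its minimum in both groups was on replicate 3, where the 10 genes averaged 8.95 with CMPF and 8.67 with vehicle. None of the acinar markers read below the lower quartile of gene levels, 14 of 20 were higher and 1 was lower with CMPF in all 3 pairs, and 0 of 20 had the pattern of the 10 genes. When the acinar mean of each array entered the fit as a covariate, 4 of the 10 differences were negative and their median was 0.02, against 9 of 10 and -0.17 without it. Dcn then differed by -0.52.

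Endothelial markers were, like the 10 genes, highest on replicate 3 in both groups. Their mean level ran from 5.88 to 6.52 with CMPF and from 5.95 to 6.28 with vehicle, 4 of 18 had the pattern, and Tie1 and Vwf read below the lower quartile. The mean level of the 17 macrophage markers lay between 6.30 and 6.51 with CMPF and between 6.26 and 6.48 with vehicle, with 4 having the pattern and Itgam, Mrc1 and Cd163 below the lower quartile. The 11 beta cell markers lay between 10.59 and 11.20 with CMPF and between 10.73 and 11.12 with vehicle, and 0 had the pattern. Duct markers ranged from 8.44 to 9.02 with CMPF and from 8.30 to 9.24 with vehicle, with 2 of 13 having the pattern, and Cftr and Onecut2 below the lower quartile. The part of acinar, endothelial, macrophage and duct cells in the values of the 10 genes was not tested.

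Lymphocyte markers ranged from 4.78 to 4.95 with CMPF and from 4.70 to 4.84 with vehicle, and 1 of 12 had the pattern. Schwann and neuronal markers ranged from 6.17 to 6.30 with CMPF and from 6.21 to 6.26 with vehicle (3 of 14). Mesothelial markers ranged from 5.07 to 5.20 with CMPF and from 5.13 to 5.20 with vehicle (2 of 10), and adipocyte markers from 5.75 to 5.82 with CMPF and from 5.74 to 5.80 with vehicle (0 of 8). Of these, 5 of 12 lymphocyte, 1 of 14 Schwann and neuronal, 5 of 10 mesothelial and 3 of 8 adipocyte markers read below the lower quartile of gene levels, among them Ms4a1, Nefl, Wt1 and Adipoq. RMA compresses differences at such levels.

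**Figure D5:**
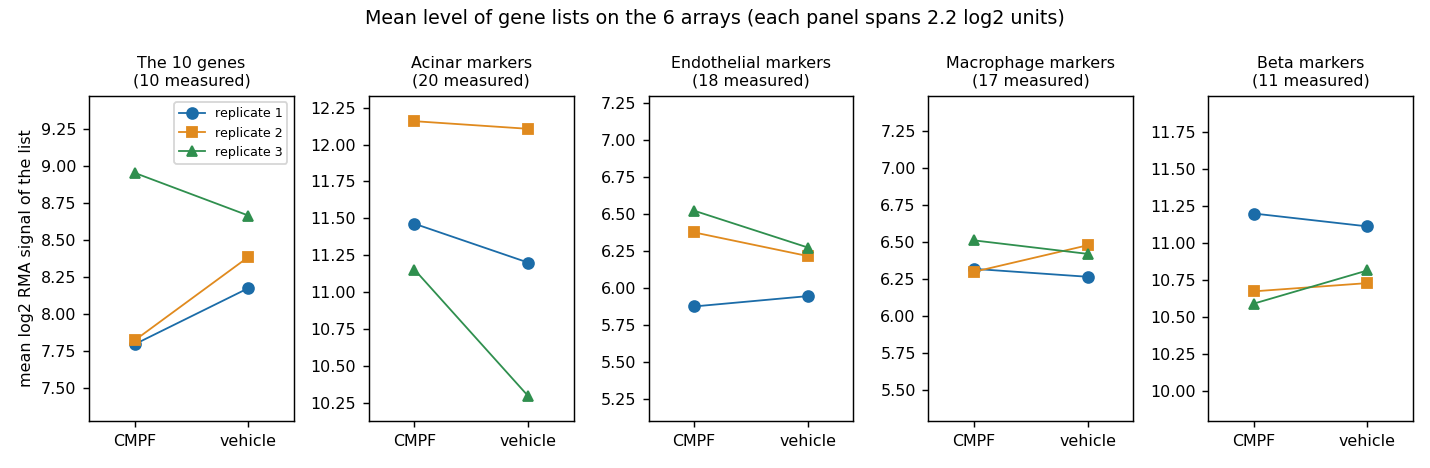
Mean log2 RMA signal of the 10 genes and of 4 marker lists on the CMPF arrays (left) and the vehicle arrays (right), with lines joining arrays of the same replicate number. The 10 genes are highest and acinar markers lowest on replicate 3 in both groups.

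The single arrays decided how large the shared difference looked. The median difference of the 10 genes was -0.60 without CMPF 3 and -0.30 without vehicle 1. It was -0.0070 without CMPF 1, 0.03 without CMPF 2 and -0.0065 without vehicle 3. Leaving out pair 3 gave -0.43, with 9 of 10 genes lower with CMPF in both remaining pairs, where 27.2% of all genes were. Leaving out pair 1 gave -0.09 and leaving out pair 2 gave -0.02, and 0 of 10 were then lower in both remaining pairs, where 22% and 22.7% of all genes were. For the 9 genes with the shared pattern, these counts restate that pattern and are no further evidence. Dcn, Fn1 and Acta2 were negative in every one of these leave-out settings, and the other negative genes changed sign in at least 1.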

How the data were processed

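RNA of 3 CMPF and 3 vehicle samples was read on Affymetrix mouse arrays. Per the submitters' processing notes, the authors made the deposited log2 signals with RMA, run in Affymetrix Expression Console 1.1. Which settings were used is not given in the sources here. RMA forces all arrays to 1 distribution and compresses differences of dim genes. Array medians lay between 5.08 and 5.15, and the number of arrays limits the precision.

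Of 45101 probe sets, 64 controls were left out, 34945 had 1 gene symbol, 932 several and 9160 none. RefSeq (GRCm38.p6) matched 34741 of those with 1 symbol by Entrez ID and changed 0 symbols. Each of 18193 genes was represented by its brightest set, with no filter on dim genes. No genome build is named in the annotation of the array.

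CMPF was compared with vehicle with limma 3.58.1 in R 4.3.3 (lmFit and eBayes, two-sided, Benjamini-Hochberg over all genes, threshold 0.05), checked on simulated data. SE values are limma's without a block, and differences are CMPF minus vehicle. Deviations from group means correlated at 0.49 to 0.64 between arrays of the same number and at -0.56 to 0.09 otherwise, so the numbers were taken to pair the arrays, from the data and not from the labels. The fit with this block was an alternative. No arrays held identical values (0 pairs).

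The 10 genes and all lists were chosen with earlier results of these data known. The text names the 10 genes, the 2 brightest genes of each stromal list and the 5 genes nearest to Dcn. Pdgfc, Tgfb3, Smad3, marker genes below the lower quartile and the motifs searched were chosen after values were seen.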

Additional observations from a re-analysis of the deposited data

How the results depend on the processing

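No gene passed the threshold under any of the 18 alternatives (0 genes, and 0 of the 10), including the replicate block, where the smallest adjusted limma p was 0.979 and 692 genes had an unadjusted p under 0.05. The block changed no call, and 0 of the 10 genes were among those 692. The median difference of the 10 genes stayed between -0.18 and 0.02 under the 9 alternatives that keep all arrays, and was -0.09 with probe set means, -0.02 with array weights and 0.02 with the acinar covariate. Leaving out 1 array or 1 pair gave medians from -0.60 (without CMPF 3) to 0.030 (without CMPF 2). Negative differences were counted in 9 of the 10 genes, in 4 with the acinar covariate, in 7 with array weights (Pdgfra was then at 0.02, Pdgfrb at 0.0003 and Thy1 at 0.0076), in 3 to 9 without 1 array and in 7 to 9 without 1 pair. The pattern over pairs held in 9 of 10 with median centring or a second quantile normalization, and in 7 with probe set means, where Acta2 and Pdgfra, averaged with dim sets, lost it. The counts of negative differences and of the pattern under these alternatives were chosen after seeing the data. Among single genes, Lum, Bgn, Sparc, Postn and Pdgfrb were positive with the acinar covariate (0.04, 0.07, 0.02, 0.02 and 0.06). Limits are 3 arrays a group, no detection call, and replicates whose origin the labels leave unstated.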
